A study of Mus musculus with 6 samples.

Results

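The genes described here are 10 genes of the actin cytoskeleton and its close partners, out of 18429 genes in the count matrix. They were chosen by role with earlier results of these data known, as a set taken to be highly detected in single macrophages. Their levels and detection below are therefore a description, and the number of molecules per cell is used in place of the share of cells that hold one. The 10 genes are the actins Actb and Actg1, the monomer-binding genes Pfn1, Tmsb4x and Tmsb10, the severing factor Cfl1, the Arp2/3 subunit Arpc1b, the bundling protein Lcp1, the intermediate filament gene Vim and Marcksl1, which encodes a MARCKS-family protein. All 10 were found in the matrix. For 8 of them at most 25.8% of the cells of a sample had no molecule. High detection did not hold for Marcksl1, which had no molecule in 95.6% of untreated Rad21-/- cells, and Actg1 had none in 29.6% to 50.4% of the cells of a sample.

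Bone marrow-derived macrophages of 2 genotypes were sorted singly into plates, and MARS-seq counted unique molecular identifiers (UMIs), each of which marks 1 captured transcript end, per gene and cell. Bone marrow came from mice with creERT2 at both Rosa26 alleles on a mixed genetic background, with Rad21 either WT/WT or lox/lox, and marrow cells of both genotypes received 200 nM 4-hydroxy-tamoxifen after 96 h in L929-conditioned medium, so the controls carried the recombinase and the drug as well. Rad21 encodes a subunit of cohesin, and Rad21-/- cells are those in which it was deleted in culture. Per the study's methods, animals of both sexes were used, aged from 6 weeks to 6 months. At day 7 the cells were left untreated or received 10 ng/ml of Salmonella typhosa LPS for 2 or 8 h. Each of the 6 conditions is 1 sample, so no difference has a replicate check, no test was run, and every interval is an exact 95% interval of counting error only.

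Macrophages move, spread and engulf particles by assembling actin monomers into filaments. Profilin hands monomers to growing filament ends, beta-thymosins hold a reserve of monomers, cofilin takes old filaments apart, and the Arp2/3 complex starts side branches. Plastins bundle filaments, MARCKS-family proteins link filaments to the plasma membrane, and vimentin builds a separate network of intermediate filaments. Several of these genes are known targets of SRF, a factor whose actin-sensing cofactors are released when free monomer runs low, and SRF binds the CArG box.

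The promoters of the 3 members below are shown because Vim and Marcksl1 moved most across the samples and Actg1 was the member with a CArG box. The RefSeq promoter table of GRCm38.p6 held 9 of the 10 members (Actb was not matched), and each entry runs from 250 bases before to 50 bases after an annotated start. Capitals mark every match, on either strand, to the TATA box (TATAAA), the GC box (GGGCGG), the CArG box or the NF-kappaB motif. The Vim promoter lies at chr2:13574061-13574360 on the plus strand, the Marcksl1 promoter at chr4:129513331-129513630 on the plus strand and the Actg1 promoter at chr11:120348446-120348745 on the minus strand.
Vim: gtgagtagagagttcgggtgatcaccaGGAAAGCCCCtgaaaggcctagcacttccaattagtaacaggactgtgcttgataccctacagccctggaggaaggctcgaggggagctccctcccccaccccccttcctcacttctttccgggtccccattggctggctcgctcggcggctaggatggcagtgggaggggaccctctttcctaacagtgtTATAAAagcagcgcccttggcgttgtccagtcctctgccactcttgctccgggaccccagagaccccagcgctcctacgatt
Marcksl1: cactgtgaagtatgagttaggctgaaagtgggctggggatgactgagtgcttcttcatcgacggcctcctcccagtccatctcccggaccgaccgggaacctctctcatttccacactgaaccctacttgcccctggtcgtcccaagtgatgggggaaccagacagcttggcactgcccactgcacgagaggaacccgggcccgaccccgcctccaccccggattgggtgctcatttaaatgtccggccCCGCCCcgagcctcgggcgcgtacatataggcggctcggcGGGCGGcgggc
Actg1: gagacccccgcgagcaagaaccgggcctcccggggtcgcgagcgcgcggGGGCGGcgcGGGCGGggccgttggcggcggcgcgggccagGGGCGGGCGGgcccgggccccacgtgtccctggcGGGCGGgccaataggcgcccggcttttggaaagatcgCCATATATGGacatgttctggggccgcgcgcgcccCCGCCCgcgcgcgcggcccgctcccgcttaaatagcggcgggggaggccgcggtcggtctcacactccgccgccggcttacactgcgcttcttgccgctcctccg
With the start base counted as 0, Vim had a TATA box from -32 to -27 and an NF-kappaB motif from -223 to -214, and no other member had either motif in its window. A TATA box occurred in 13.6% and an NF-kappaB motif in 4.51% of the 32851 promoters of this length. Actg1 had a CArG box from -90 to -81, a motif found in 1.63% of all promoters. GC boxes occurred in 8 of the 9 matched members and in 35.7% of all promoters, and Vim was the member without one. The 9 members had 12 promoters, and a member counted if any of its promoters matched, so the 2 shares differ in unit. In Actg1, 2 of the GC boxes overlapped. No binding or accessibility was measured here, and these matches are letters in a window.

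The matrix held 1362 cells from 24 library pools. A sample held up to 270 cells, and the median number of UMIs per cell ran from 5577 to 7055.5, with totals of 1417409 to 2195921 UMIs per sample. Each pool belonged to 1 time point, so pool and time point cannot be told apart in the effect of LPS, whereas 23 pools held both genotypes. No cell was shared between samples, although 97 of 109 well barcodes recurred in more than 1 pool. The macrophage markers, 9 of 9 in the matrix, summed to between 6306 and 10635 CPM, a count scaled to the total of its cell, and the sum was lower in Rad21-/- than in wild-type cells at each time. Lyz2 was lower in Rad21-/- cells, at 6410, 6294 and 3735 CPM in wild-type cells and 3365, 3435 and 2529 CPM in Rad21-/- cells. Cd14 was lower as well, at 638, 1825 and 1937 CPM against 135, 538 and 1013 CPM, and so were Fcgr1 and Mertk at each time. Csf1r, Cd68 and Mrc1 were higher in Rad21-/- cells at each time, and Adgre1 and Itgam differed in direction between times. Rad21 itself had a UMI in 25.9%, 26.9% and 18.7% of wild-type cells (untreated, 2 h, 8 h) and in 2.96%, 6.45% and 5.80% of Rad21-/- cells. In all, 17 wells held more than 25000 UMIs, and the 5 of them in the wild-type 2 h sample carried 45.5% of its UMIs, so every cell was thinned to 3800 UMIs, which left 1165 cells. Within-pool values use the shared pools with at least 10 thinned cells of each genotype, 7 untreated, 4 at 2 h and 6 at 8 h. Unless stated otherwise, a level is the mean number of UMIs per thinned cell, and a change is the log2 ratio of 2 such means. The 2 h and 8 h comparisons of a genotype share its untreated sample. A gene was called higher or lower at 1.5-fold, and the background is the 3475 genes with a mean of at least 50 CPM.

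The 10 genes together made up 1.91% of the UMIs of an untreated wild-type cell on average, 1.86% at 2 h and 2.14% at 8 h. Rad21-/- cells gave 1.58%, 1.49% and 1.92%, lower than wild-type cells of the same time point at all 3 times. The spread among cells was wide, with the central 80% of untreated wild-type cells between 1.22% and 2.54%. The summed level of the 10 genes was lower in Rad21-/- cells by a log2 ratio of -0.28 untreated, -0.30 at 2 h and -0.16 at 8 h. Actb and Tmsb4x dominate these sums, so the genes are taken in turn below, by role.

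**Figure D1:**
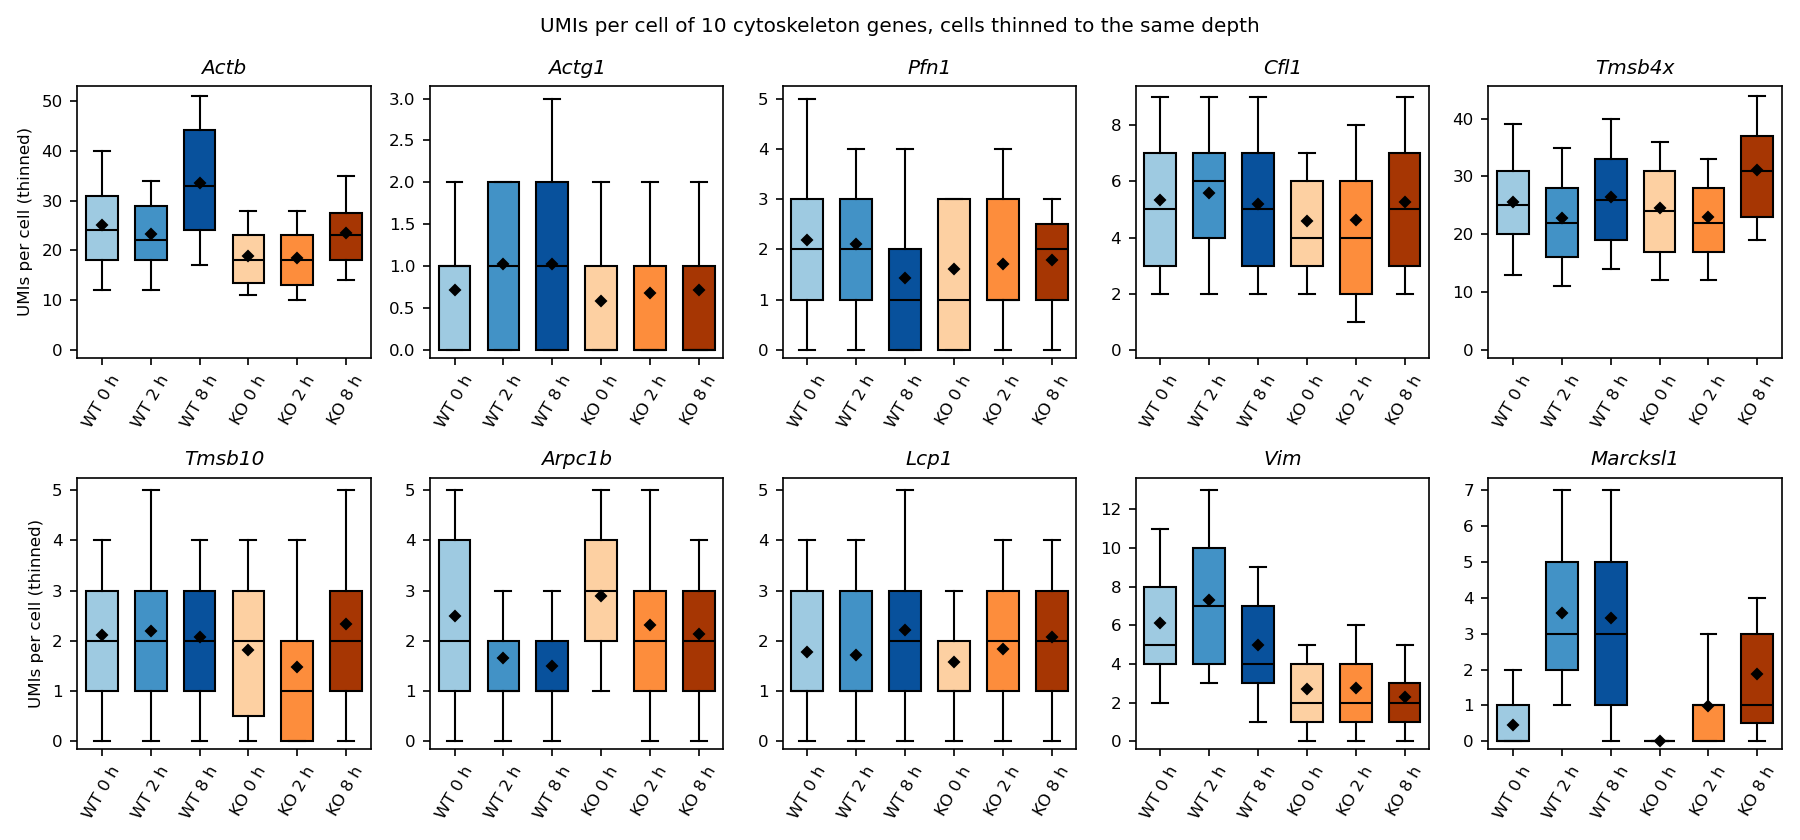
UMIs per thinned cell (linear vertical axis) of each of the 10 genes in wild-type (WT, blue) and Rad21-/- (KO, orange) cells, untreated (0 h) and after 2 or 8 h of LPS. Boxes give the quartiles and the median, whiskers the 10th and 90th percentiles, and diamonds the mean. The boxes of Vim lie lower in all 3 Rad21-/- samples, and those of Marcksl1 leave the baseline after LPS.

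Actb, which encodes cytoplasmic beta-actin, had at least 1 UMI in each of the 1362 cells. Its level was 25.01 in untreated wild-type cells, 23.3 at 2 h and 33.5 at 8 h. In Rad21-/- cells it was 18.9, 18.6 and 23.6. Rad21-/- cells were therefore lower at each time, and both genotypes were highest at 8 h. The log2 ratio of Rad21-/- to wild-type cells was -0.40 (-0.46 to -0.34) untreated, -0.33 (-0.40 to -0.26) at 2 h and -0.51 (-0.56 to -0.46) at 8 h, all short of 1.5-fold. Within library pools, Actb was lower in Rad21-/- cells in 7 of 7 pools untreated, 4 of 4 at 2 h and 6 of 6 at 8 h. The difference ran through the distribution, since the 10th and 90th percentiles at 8 h were 16.7 and 51 in wild-type cells and 14 and 35 in Rad21-/- cells, and 12.3% (8.13% to 17.6%) of Rad21-/- cells reached the wild-type median of 33 UMIs. From untreated to 8 h the log2 ratio of Actb was 0.42 in wild-type cells and 0.32 in Rad21-/- cells, and the pool means of the 2 times overlapped in both genotypes.

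Actg1, cytoplasmic gamma-actin, had a level of 0.714, 1.03 and 1.03 in wild-type cells (untreated, 2 h, 8 h) and 0.583, 0.675 and 0.719 in Rad21-/- cells. Wild-type cells were higher at each time. The ratio of Rad21-/- to wild-type cells was -0.29 (-0.65 to 0.07) untreated, -0.61 (-0.98 to -0.25) at 2 h and -0.52 (-0.83 to -0.22) at 8 h. The 2 h value just passed 1.5-fold, but its value averaged over all possible thinnings was -0.52, which did not, and with pools left out singly it ranged from -0.74 to -0.34. The protein-coding parts of Actb and Actg1 are nearly identical, and the authors counted only unambiguously mapped reads, so molecules of this pair may be under-counted or split. Actg1 made up 2.77% (2.33% to 3.27%) of the UMIs of the pair in untreated wild-type cells and 4.24% (3.64% to 4.91%) at 2 h, with 2.98% at 8 h. The Rad21-/- samples gave 2.99%, 3.51% and 2.96%. The wild-type 2 h share was above the wild-type untreated and 8 h shares beyond counting error, and the 3 Rad21-/- intervals overlapped. Counting error leaves out differences between pools. The 4 wild-type pools at 2 h had Actg1 means of 1.73, 1.43, 0.667 and 0.574. Their Actb means were 26.6, 20.6, 21.03 and 24.5, so the higher share did not run through all pools. With pools left out singly, the 2 h change of Actg1 in wild-type cells ranged from 0.16 to 0.76.

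Among the monomer-binding genes, Tmsb4x (thymosin beta 4) was at 25.6, 22.9 and 26.5 UMIs in wild-type cells and at 24.6, 22.9 and 31.1 in Rad21-/- cells. The genotypes thus lay close together until 8 h, where the ratio was 0.23 (0.18 to 0.29) and the gene was higher in Rad21-/- cells in 5 of 6 pools. Within the Rad21-/- genotype the ratio of 8 h to untreated was 0.34 (0.29 to 0.39). Actb at 8 h was lower in Rad21-/- cells. Relative to the median of all tested genes, which at 8 h was itself 0.21 higher in Rad21-/- cells, the Tmsb4x ratio came to 0.02, that of Actb to -0.72 and that of Actg1 to -0.73, the last 2 then past 1.5-fold.

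Tmsb10, which encodes the related thymosin beta 10, had levels of 2.11, 2.19 and 2.07 in wild-type cells and 1.82, 1.49 and 2.34 in Rad21-/- cells. It was lower in Rad21-/- cells at 2 h by -0.56 (-0.81 to -0.32), where its pool means of 1.21 to 1.78 did not overlap the wild-type range of 1.97 to 2.77. Rad21-/- cells without a thinned Tmsb10 UMI made up 36.4% at 2 h, against 15.2% of wild-type cells. Untreated and 8 h pools overlapped. Of the UMIs of the thymosin pair, Tmsb10 held 8.75% (7.91% to 9.65%) in wild-type and 6.09% (5.35% to 6.91%) in Rad21-/- cells at 2 h, with 6.87% to 7.64% in the other 4 samples.

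Pfn1, profilin 1, was at 2.18, 2.10 and 1.43 UMIs in wild-type cells and at 1.61, 1.71 and 1.78 in Rad21-/- cells. Wild-type cells fell at 8 h to below the Rad21-/- level, so the order of the genotypes differed between untreated and 8 h cells. The fall was -0.60 (-0.82 to -0.39), while Rad21-/- cells changed by 0.15 (-0.07 to 0.36) over the same time. The genotype ratio was -0.44 untreated, with 7 of 7 pools below 0, and 0.31 (0.09 to 0.53) at 8 h, with 5 of 6 above 0. The median tested gene changed by -0.20 in wild-type cells at 8 h, and relative to it Pfn1 changed by -0.41, short of 1.5-fold. With pools left out singly the value for Pfn1 ranged from -0.78 to -0.49, so single pools could end the call.

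Cfl1, cofilin 1, was the steadiest of the 10, with 5.34, 5.6 and 5.18 UMIs in wild-type cells and 4.57, 4.62 and 5.26 in Rad21-/- cells. Its lowest and highest samples differed 1.22-fold. It was nevertheless lower in untreated Rad21-/- cells in 7 of 7 pools, by -0.22 (-0.35 to -0.10), and at 2 h in 4 of 4, by -0.28 (-0.42 to -0.13). At 8 h the ratio was 0.02, with 3 pools on either side.

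Arpc1b encodes a subunit of the Arp2/3 complex. Its level was 2.49 in untreated wild-type cells, 1.65 at 2 h and 1.51 at 8 h. Rad21-/- cells gave 2.89, 2.31 and 2.14, so it was lower after LPS in both genotypes and higher in Rad21-/- cells at each time. The change with LPS in wild-type cells was -0.59 (-0.81 to -0.38) at 2 h and -0.73 (-0.93 to -0.52) at 8 h, both past 1.5-fold, and in Rad21-/- cells it was -0.32 (-0.51 to -0.13) and -0.44 (-0.61 to -0.26), both short of it. In wild-type cells the 8 pool means at 8 h, 1.18 to 1.69, lay below all 7 untreated means, 1.81 to 3.43. Arpc1b was higher in Rad21-/- cells by 0.21 (0.04 to 0.39) untreated, 0.48 (0.25 to 0.72) at 2 h and 0.50 (0.30 to 0.71) at 8 h, and in 6 of 7, 4 of 4 and 6 of 6 pools. Both wild-type calls were lost relative to the median of tested genes, at -0.51 and -0.53. The 2 h value was also sensitive to single pools, ranging from -0.73 to -0.50 as they were left out, and without scaling for depth it turned to 0.44.

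Lcp1, the leukocyte filament bundler L-plastin, was at 1.78, 1.73 and 2.21 UMIs in wild-type cells and 1.59, 1.84 and 2.08 in Rad21-/- cells. It was higher at 8 h than untreated in both genotypes, by 0.31 (0.11 to 0.51) and 0.39 (0.18 to 0.60), and no comparison passed 1.5-fold. The genotype intervals included 0 at all 3 times. In wild-type cells the share without a thinned UMI went from 23.4% untreated to 11.4% at 8 h.

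Vim, vimentin, differed more than 1.5-fold between the genotypes at all 3 times. Its level was 6.15 in untreated wild-type cells, 7.30 at 2 h and 5.01 at 8 h, against 2.71, 2.76 and 2.29 in Rad21-/- cells. Every Rad21-/- sample was thus below every wild-type sample. The ratio was -1.18 (-1.32 to -1.04) untreated, -1.40 (-1.57 to -1.24) at 2 h and -1.13 (-1.29 to -0.97) at 8 h, or 2.27-, 2.65- and 2.19-fold lower. Vim was lower in Rad21-/- cells in every one of the 7, 4 and 6 shared pools, and the pool means of the genotypes did not overlap at any time (untreated, 2.18 to 3.62 against 4.67 to 8.46). The lower tail, the middle and most of the upper tail were lower. At 2 h the 10th, 50th and 90th percentiles were 3, 7 and 13 UMIs in wild-type cells and 0, 2 and 6 in Rad21-/- cells, and 8.44% (4.57% to 14.0%) of Rad21-/- cells reached the wild-type median. A tail remained, since a Rad21-/- untreated cell held 22 Vim UMIs and the variance over the mean was 2.66 there.

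The effect of LPS on Vim was small in either genotype. In wild-type cells it was 0.25 (0.13 to 0.37) at 2 h and -0.30 (-0.41 to -0.18) at 8 h, and in Rad21-/- cells 0.02 (-0.16 to 0.21) and -0.24 (-0.42 to -0.07). Among untreated samples the genotype ratio of Vim was below that of all but 3.68% of tested genes, and at 2 h and 8 h below all but 3.11% and 4.92%. The summed macrophage markers were lower in Rad21-/- cells as well, with Lyz2, Cd14, Fcgr1 and Mertk lower and Csf1r, Cd68 and Mrc1 higher. Cell cycle markers (6 genes) summed to 394, 348 and 51.7 CPM in wild-type cells and 170, 70.6 and 58.9 CPM in Rad21-/- cells. Fibroblast and stromal markers (4 of 6 in the matrix) summed to between 13.8 and 23.5 CPM, with at most 1 marker at 0 in a sample. B cell markers (2 of 5 in the matrix, none at 0), mostly the transcript of Ighm, summed to 49.01, 25.1 and 23.9 CPM in wild-type cells and 181, 176 and 170 CPM in Rad21-/- cells. The part of these markers in the differences of Vim and the other 9 genes was not tested. Without cells holding a UMI of Mki67 or Top2a, genes of dividing cells, the Vim ratios were -1.17, -1.51 and -1.17.

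Marcksl1, which encodes a membrane and actin-binding protein of the MARCKS family, varied most. Untreated wild-type cells held 0.458 UMIs on average, and LPS-treated cells 3.57 at 2 h and 3.43 at 8 h. Rad21-/- cells started at 0.018, where 12 of 270 cells held 14 UMIs in all before thinning, and reached 0.994 at 2 h and 1.88 at 8 h. The level thus rose with LPS in both genotypes, was lower in Rad21-/- cells at all times, and was similar at 2 and 8 h in wild-type cells but higher at 8 h than at 2 h in Rad21-/- cells. In wild-type cells the increase was 7.79-fold at 2 h, a log2 ratio of 2.96 (2.64 to 3.30), and 7.47-fold at 8 h, a log2 ratio of 2.90 (2.58 to 3.24). In Rad21-/- cells it was 5.79 (4.41 to 7.69) at 2 h and 6.71 (5.34 to 8.60) at 8 h. These 2 rest on 4 thinned UMIs in the untreated sample and are imprecise, since over all thinnings they came to 5.29 and 6.17 and with another random draw to 4.51 and 5.44.

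Rad21-/- cells were below wild-type cells in Marcksl1 by -4.68 (-6.58 to -3.27) untreated, which over all thinnings came to -3.92 and with another draw to -3.08. The gap was -1.85 (-2.11 to -1.59) at 2 h and -0.86 (-1.04 to -0.69) at 8 h, so as a ratio it was smaller the longer the LPS. The untreated ratio rests on 4 thinned UMIs in Rad21-/- cells. In UMIs per cell the gap was smallest untreated (0.458 against 0.018), widest at 2 h (3.57 against 0.994) and between these at 8 h (3.43 against 1.88). The mean was lower in Rad21-/- cells in all 7, 4 and 6 shared pools. Pool means did not overlap between genotypes untreated (0 to 0.0588 against 0.0909 to 0.619) or at 2 h (0.757 to 1.13 against 3 to 4.54) but did at 8 h. The untreated pool means rest on few UMIs, so their order and separation are fragile. Per cell, 4.85% of wild-type cells had no thinned UMI at 2 h, against 47.4% (39.3% to 55.6%) of Rad21-/- cells, and at 8 h the shares were 10.96% and 25.1%. The median was 3 UMIs in both stimulated wild-type samples and 1 in both stimulated Rad21-/- samples, with 14.3% of Rad21-/- cells at 2 h and 29.1% at 8 h at or above the wild-type median.

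**Figure D2:**
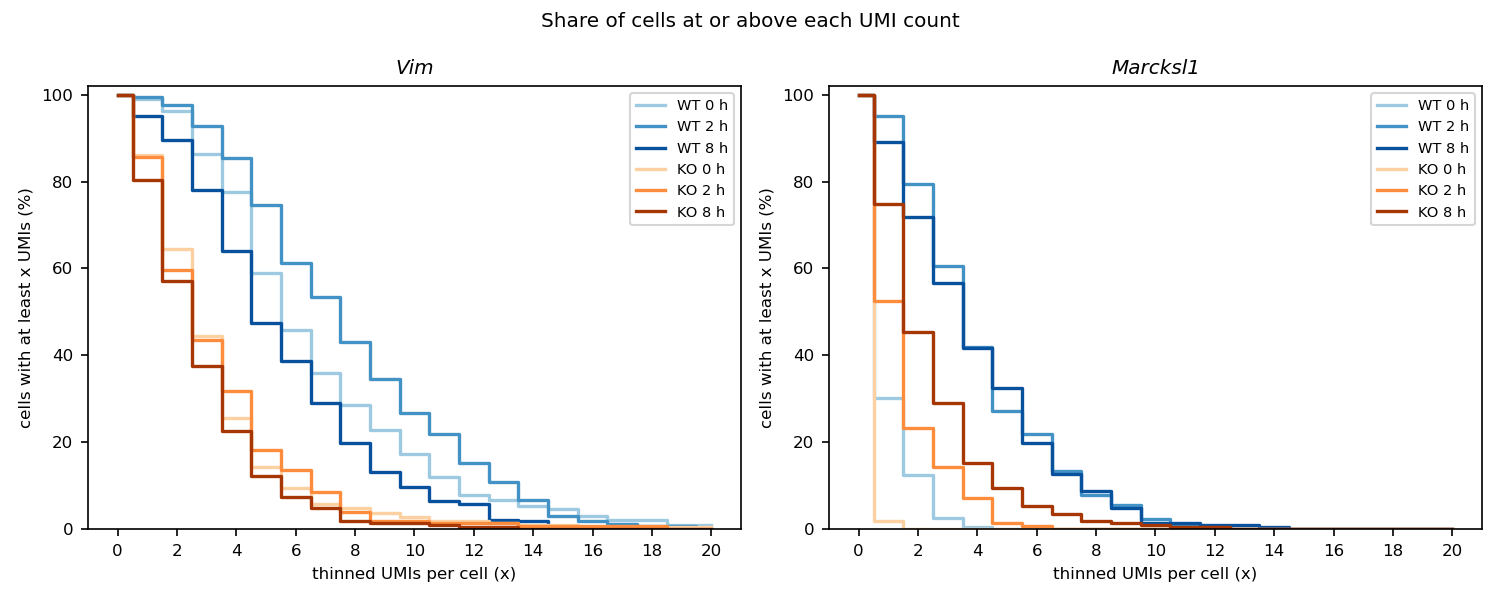
Share of cells (vertical axis, %) with at least x thinned UMIs (horizontal axis) of Vim and Marcksl1, 1 line per sample, wild-type (WT) in blue and Rad21-/- (KO) in orange. For Vim the 3 Rad21-/- lines lie together below the wild-type lines from 1 to 10 UMIs, and for Marcksl1 the lines separate by time of LPS as well as by genotype.

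**Figure D3:**
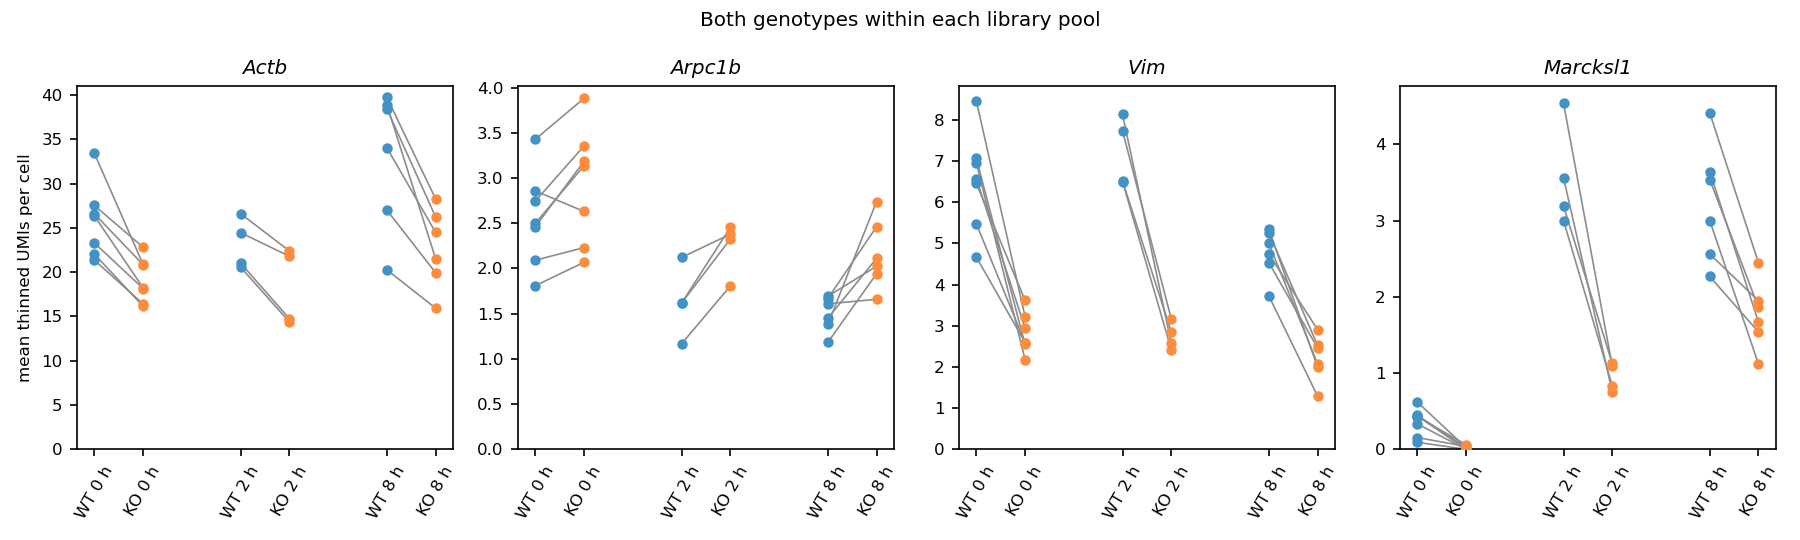
Mean thinned UMIs per cell of Actb, Arpc1b, Vim and Marcksl1 in wild-type (WT, blue) and Rad21-/- (KO, orange) cells of the same library pool, each line joining the genotypes of 1 pool with at least 10 cells of each. All lines fall for Actb, Vim and Marcksl1, and all but 1 rise for Arpc1b.

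Read by comparison, the calls among the 10 genes are given beside the shares of all tested genes. After 2 h of LPS in wild-type cells, 1 was higher (Marcksl1) and 1 lower (Arpc1b), where 10.4% of tested genes were higher and 9.21% lower. At 8 h, 1 was higher (Marcksl1) and 2 lower (Pfn1 and Arpc1b), beside 15.9% and 26.4% of tested genes. In Rad21-/- cells Marcksl1 was the 1 gene called higher and none was called lower at 2 h, beside 11.6% and 5.93%, and again at 8 h, beside 18.9% and 13.6%. The median change of the 10 genes was 0.00 and 0.01 in wild-type cells and 0.02 and 0.31 in Rad21-/- cells at 2 and 8 h, beside -0.08, -0.20, 0.00 and 0.02 over all tested genes.

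Between the genotypes, 0 of the 10 were higher and 2 lower in untreated Rad21-/- cells (Vim and Marcksl1), beside 6.68% and 13% of tested genes. At 2 h, 0 were higher and 3 lower (Actg1, Vim and Marcksl1), beside 11.9% and 11.9%, and at 8 h, 0 were higher and 2 lower (Vim and Marcksl1), beside 22.3% and 11.5%. The median genotype ratio of the 10 genes was -0.26, -0.31 and -0.03, beside -0.02, 0.06 and 0.21 over all tested genes. Below 0 were 9, 7 and 5 of the 10 genes.

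Agreement among pools was read in the same way. Pool means did not overlap between LPS and untreated cells for 1 gene in wild-type cells at 2 h (5.41% of tested genes), 2 at 8 h (12.3%), 1 in Rad21-/- cells at 2 h (4.43%) and 1 at 8 h (10.2%). Between genotypes they did not overlap for 2 genes untreated (2.71% of tested genes), 3 at 2 h (13.3%) and 1 at 8 h (7.05%). Within shared pools, 5 of the 10 genes differed in the same direction in every pool untreated (11.8% of tested genes), 9 at 2 h with its 4 pools (31.8%) and 5 at 8 h (24.9%). The 5 untreated genes were Actb, Pfn1, Cfl1, Vim and Marcksl1, all lower, and the 5 at 8 h were Actb, Actg1, Vim and Marcksl1, lower, and Arpc1b, higher. Marcksl1 is in both untreated counts between genotypes, where its pool means rest on few UMIs.

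**Figure D4:**
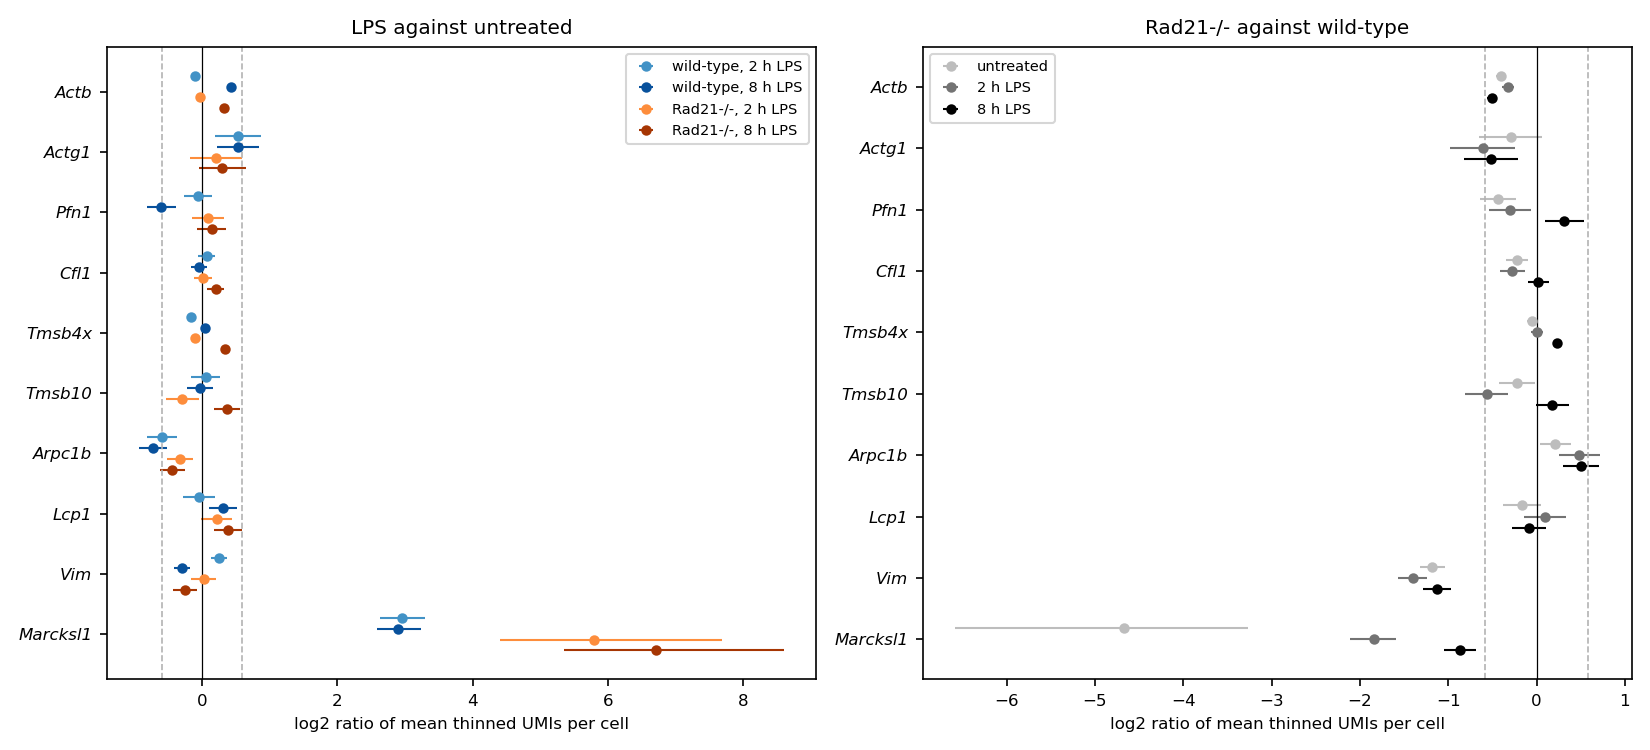
Log2 ratio of mean thinned UMIs per cell (horizontal axis) of the 10 genes, for LPS against untreated in each genotype on the left and for Rad21-/- against wild-type at each time on the right. Bars are exact 95% counting intervals and dashed lines mark 1.5-fold. Marcksl1 lies far to the right after LPS, and Vim and Marcksl1 lie to the left of the 1.5-fold line in all 3 genotype comparisons.

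The variance between cells exceeded that of counting for the most abundant genes. For the same relative spread the variance over the mean rises with the level, so it does not rank genes of different levels by their variation. It also holds differences between pools, such as Tmsb4x pool means of 14.96 to 35 in untreated Rad21-/- cells. The variance over the mean of thinned UMIs was 2.90 to 5.56 for Actb and 3.55 to 4.47 for Tmsb4x, while the median of the 433 to 508 genes averaging 1 UMI or more was 1.24 to 1.32 in the 6 samples. Arpc1b, with levels of only 1.51 to 2.89 UMIs, was at 0.966 to 1.38, where counting alone gives 1. Vim was at 1.91 to 2.66, and Marcksl1 at 1.66 to 2.10 in the LPS-treated samples. For Actb, Tmsb4x, Vim and Marcksl1 after LPS the counting intervals are therefore narrower than the spread among cells would make them. The same holds to a smaller degree for other genes wherever the value was above 1.

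Of the 45 pairs of the 10 genes, 7 had a Spearman's rank correlation above 0 over the thinned cells of all 6 samples, and the median over pairs and samples was 0.0462. The largest was that of Actb with Cfl1, at a median of 0.34 (0.17 to 0.39 over the samples, with at most 228 cells each), followed by Actb with Actg1 at 0.26 (0.16 to 0.34) and Actb with Pfn1 at 0.20 (0.17 to 0.26). Vim, which does not build actin filaments, had a median of 0.034 with Actb. Cells of a sample share pools and base composition, and sparse counts hold such correlations near 0, so these are descriptions.

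**Figure D5:**
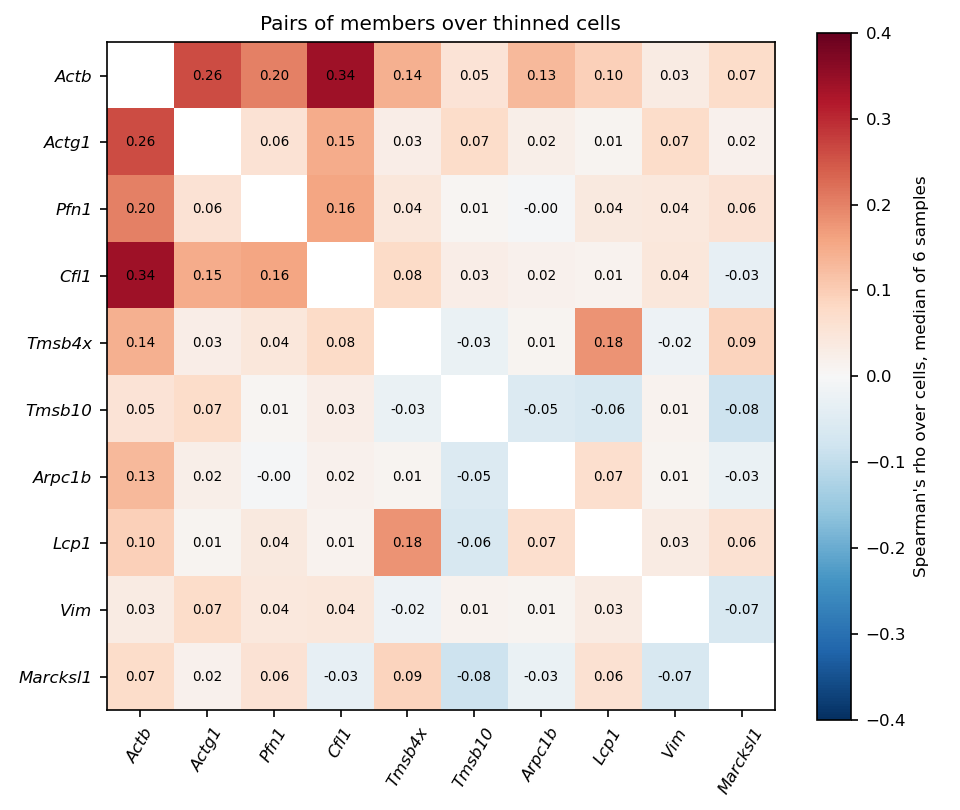
Spearman's rank correlation over thinned cells for each pair of the 10 genes, as the median of the 6 samples, on a colour scale from -0.4 to 0.4. The warmest squares are those of Actb with Cfl1, Actg1 and Pfn1, while Actg1 with Pfn1 is at 0.058. The row of Vim is near 0, with its highest value, 0.075, for Actg1.

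For Marcksl1 and Vim, the genes with the widest range over the 6 samples, the tested gene with the most similar pattern of log2 level was looked up. It was BC048502 for Marcksl1 (Pearson's r 0.998 over 6 samples) and Anxa4 for Vim (0.995). BC048502 went from 0.208 to 2.10 and 1.89 UMIs in wild-type and from 0.00897 to 0.532 and 0.956 in Rad21-/- cells. Anxa4, annexin A4, was at 0.724, 0.824 and 0.667 in wild-type cells and 0.395, 0.416 and 0.379 in Rad21-/- cells. With 6 points and 3475 candidates, such values say only which gene came closest. For Marcksl1 the lowest point on the log2 scale, untreated Rad21-/- cells, rests on 4 thinned UMIs of Marcksl1 and a BC048502 mean of 0.00897.

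Other genes of the cytoskeleton were taken from 12 lists by role, of which 73 genes were tested. In wild-type cells 4 of the 73 were higher and 4 lower at 2 h, beside 10.4% and 9.21% of all tested genes, and 10 and 28 at 8 h, beside 15.9% and 26.4%. In Rad21-/- cells the counts were 7 and 4 at 2 h (11.6% and 5.93% of all tested genes) and 12 and 14 at 8 h (18.9% and 13.6%). Against wild-type cells, Rad21-/- cells had 5 higher and 13 lower untreated (6.68% and 13%), 8 and 15 at 2 h (11.9% in either direction) and 22 and 8 at 8 h (22.3% and 11.5%). Their medians in the 7 comparisons, in this order, were -0.10, -0.27, -0.07, -0.03, -0.09, 0.03 and 0.14, beside -0.08, -0.20, 0.00, 0.02, -0.02, 0.06 and 0.21 over all tested genes.

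Among bundling and side-binding genes (12 of 21 tested), Marcks is of the same family as Marcksl1. It rose with LPS by 0.63 (0.29 to 0.98) in wild-type cells at 2 h and by 1.48 (1.02 to 1.96) and 2.37 (1.96 to 2.80) in Rad21-/- cells at 2 and 8 h, and its 0.91 (0.60 to 1.23) in wild-type cells at 8 h is named after its value was seen. Untreated Rad21-/- cells held less Marcks, at 0.265 against 0.641 UMIs, a ratio of -1.28 (-1.75 to -0.82). Vasp, which extends filament ends, rose in all 4 LPS comparisons, by 0.90, 1.98, 1.41 and 2.86 (wild-type then Rad21-/-, 2 then 8 h). Of the filament-binding genes, Flna was lower in Rad21-/- cells at 2 and 8 h by -1.80 and -1.14 and Tagln2 untreated and at both times by -1.27, -1.39 and -1.43. Zyx, a focal adhesion protein, was higher in Rad21-/- cells at 2 h by 1.08 and lower at 8 h by -2.25, where it was at 0.846 UMIs in wild-type cells and 0.177 in Rad21-/- cells. Tpm4 was lower in untreated Rad21-/- cells by -1.28, and Tpm1 fell at 8 h in both genotypes by -1.36 and -1.53.

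Of 8 further genes of the Arp2/3 complex, 7 were tested. Actr3, which forms the core of the complex with Actr2, was lower in Rad21-/- cells by -0.67, -1.05 and -1.06, opposite in sign to Arpc1b. Arpc1a was higher in untreated Rad21-/- cells by 0.60 and fell there by -0.81 after 8 h of LPS, Arpc3 was higher in Rad21-/- cells by 0.67 at 2 h and 8 h, and Arpc4 fell in wild-type cells at 8 h by -0.71 and was 0.61 higher in Rad21-/- cells there. No other gene of this list passed 1.5-fold.

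Among monomer-binding and turnover genes, of which 9 of 18 were tested, 0, 0, 1 and 0 were higher and 1, 3, 0 and 3 lower with LPS, in the order wild-type 2 h and 8 h, Rad21-/- 2 h and 8 h. Coro1c, Twf2 and Coro1a were lower at 8 h by -2.20, -1.79 and -1.37 in wild-type and by -1.52, -1.50 and -0.72 in Rad21-/- cells. Against wild-type cells, Rad21-/- cells had 1, 3 and 3 of these genes higher and 1, 1 and 0 lower (untreated, 2 h, 8 h). Twf1, a monomer-binding twinfilin, was higher in Rad21-/- cells by 0.73, 1.10 and 0.72, and the lowest ratios of the list were -1.11 untreated and -1.12 at 2 h. Tubulins and lamins, 6 tested, stood closest to Vim by role. All 6 were lower in wild-type cells at 8 h, led by Tuba1b, Tubb5 and Tubb4b at -2.35, -1.69 and -1.65, and 5 were lower in untreated Rad21-/- cells, led by Tuba1b, Lmna and Tubb2a at -1.05, -1.01 and -0.95. The cell cycle markers given with Vim fell in the same wild-type sample, and their part in this was not tested. At 8 h, 4 of the 6 were higher in Rad21-/- cells and Lmna was lower, by -1.53.

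In the remaining lists, the myosins (6 tested) had 4 lower at 8 h in wild-type cells, led by Myo1f at -2.65, and Myo5a was higher in Rad21-/- cells by 1.16, 1.48 and 1.20. Arp2/3 activators (7 tested) had 3 higher and 1 lower in Rad21-/- cells at 8 h, led by Abi1 at 1.38. Capping and severing genes (6 tested) had 2 higher and 2 lower in wild-type cells at 8 h, led by Gsn at -1.51, and the membrane linkers (7 tested) had 1 lower there, Rdx at -0.75. Rdx was also lower in wild-type cells at 2 h, at -0.95, and was higher in Rad21-/- than in wild-type cells at 8 h, at 0.73, while Msn was lower in untreated Rad21-/- cells, at -0.67. Acta2, the 1 other actin tested, was higher in wild-type cells by 0.74 at 2 h and 1.63 at 8 h and lower in Rad21-/- cells at 2 h, at -0.87. Against wild-type cells it was lower in Rad21-/- cells at 2 h and 8 h, at -1.26 and -0.71. Fmnl2 was the 1 formin tested, at -0.71 in Rad21-/- against wild-type cells at 8 h. The 3 genes of SRF and its cofactors were below the minimum level.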

How the data were processed

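MARS-seq libraries of single sorted macrophages were analysed from the UMI counts that the authors deposited, whole-number counts per gene and cell with no normalization. Per the labels and the methods of the study, the authors mapped reads with GEMTools 1.7.0 to GRCm38.p4 with Gencode M8, kept unambiguously mapped reads, collapsed identical UMIs and removed cells of poor quality, steps that can lower the counts of genes with near-identical copies. Cells were assigned to samples by their names, and 0 columns were left unmapped. No doublet caller was run, since wells were sorted singly.

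Each cell was thinned without replacement to 3800 UMIs (seed 11), the largest multiple of 100 that kept 80% of the cells of every sample, and 1165 of 1362 cells were kept. CPM values were computed per cell from all its UMIs. Ratios of mean thinned UMIs carry exact conditional (Clopper-Pearson) 95% intervals, and shares of cells exact binomial ones. These cover counting error only. With 1 sample per condition no test was run. Genes with a mean of at least 50 CPM over the 6 samples (3475) form the background, and 1.5-fold was the limit for a call. Pool means use pools with at least 10 thinned cells. In ratios, a summed count below 3 UMIs was raised to 3, whereas the agreement of all tested genes among pools was counted from the means.

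The 10 genes and the lists were chosen with earlier results of these data known. All 10 are named, and of each list, in the comparisons the text gives, genes past 1.5-fold, up to the 3 with the largest absolute ratio. Not every such gene of a comparison is named. Of the lists and look-alike genes, 1 each is not reported here. Promoters came from RefSeq (GRCm38.p6). The thinning and the ratios were tested on simulated data. Alternatives changed the scaling, the depth, the draw, the weights, the limits and the cells and pools included. Python 3.11.15, numpy 2.4.6, pandas 2.3.3, scipy 1.17.1 and matplotlib 3.10.9 were used.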

Additional observations from a re-analysis of the deposited data

How the results depend on the processing

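Of 1632 values under alternatives, 1502 stayed within the limits set for them. Of the 316 alternatives of the 14 values past 1.5-fold, 1 turned sign, since Arpc1b in wild-type cells at 2 h was 0.44 from UMIs without scaling for depth. Smaller values also changed sign, such as Vim in Rad21-/- cells at 8 h, from -0.24 to 0.49, and Arpc1b there, from -0.44 to 0.15, both without scaling. Counts of the 10 genes past 1.5-fold follow. Without scaling, wild-type 2 h had 7 higher and 0 lower, wild-type 8 h 2 and 0, and Rad21-/- 8 h 6 higher, while Rad21-/- against wild-type had 7 lower at 2 h and 1 higher and 0 lower at 8 h. From median CPM, where Marcksl1 has no ratio against a median of 0, 0 were higher in all 4 LPS comparisons, 1 was lower in Rad21-/- cells at 2 h and 1 lower in untreated Rad21-/- against wild-type cells. Centred on the median tested gene, wild-type cells had 2 higher and 0 lower at 2 h and 3 higher and 0 lower at 8 h, and Rad21-/- against wild-type had 4 lower at 8 h. At the deeper thinning of 5500 UMIs, and without cells with a UMI of Mki67 or Top2a, 1 was lower in wild-type cells at 8 h. At the lower fold limit, 2 and 3 were higher in wild-type cells at 2 and 8 h, 1 was lower in Rad21-/- cells at 2 h, 4 were higher and 1 lower at 8 h, and Rad21-/- against wild-type had 4 lower untreated, 1 higher and 5 lower at 2 h and 1 higher and 4 lower at 8 h. At 2-fold, 0 were lower in wild-type cells at 2 and 8 h and 1 was lower in Rad21-/- against wild-type cells at 8 h. With library pools left out singly, counts ranged from 1 to 2 higher and 0 to 1 lower in wild-type cells at 2 h, 1 to 2 higher and 1 to 2 lower at 8 h, 1 to 1 higher and 0 to 0 lower in Rad21-/- cells at both times, and, for Rad21-/- against wild-type, 0 to 0 higher and 2 to 2 lower untreated, 0 to 1 higher and 2 to 4 lower at 2 h and 0 to 1 higher and 2 to 3 lower at 8 h. The cause of these changes was not tested. The mean over all draws of the thinning was an alternative chosen after seeing the data. No paired analysis was possible because each condition is 1 sample. Depth limits Marcksl1 in untreated Rad21-/- cells, with 14 UMIs in all.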
